A study of Mus musculus with 108 samples.

Results

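The genes described here are Arntl, Clock and Npas2, which encode the activating proteins of the circadian clock, in RNA sequencing of livers of male mice. They were chosen by name. Where a gene had several transcripts in the deposited tables, the transcript with the highest mean was taken. They are 3 of 25124 gene symbols in each of the 3 deposited tables, and all 3 passed the filter on low values in every table. Npas2 passed narrowly among the wild-type libraries, with a mean of 13.4 against a minimum of 10. The labelled libraries fall into 6 sets of 18, with 3 replicates at each of 6 zeitgeber times (ZT, where 0 is lights on), ZT2, ZT6, ZT10, ZT14, ZT18 and ZT22. Errg-Cre livers came from 129S1/SvImJ mice and Esrrg LKO livers from mice called B6 in the title and B6S1/SvImJ in the strain field, both on the high fat and sucrose diet D12492i (HFD). The other 4 sets were wild type: 129S1/SvImJ (129) on HFD, 129 on normal chow, C57BL/6J (B6) on HFD and B6 on normal chow. The titles of the Esrrg LKO libraries read diet-induced obesity, where those of the B6 HFD libraries read high-fat diet. The series describes a knockout of Esrrg, a nuclear receptor gene, restricted to hepatocytes; the promoter behind Cre and the deleted exons are not given in the sources used here, and no age is given. The columns taken for Esrrg LKO are headed as Errg-Cre in their own table and were assigned by the table that the sample descriptions name.

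The protein of Arntl, called BMAL1 or ARNTL, pairs with CLOCK or with its close relative NPAS2, and the pair binds E-box sequences to switch on the Per, Cry, Nr1d1, Nr1d2 and Dbp genes. PER and CRY proteins then hold the pair in check, while the receptors of Nr1d1 and Nr1d2 repress, and ROR receptors activate, genes with ROR elements, among them Arntl and Npas2. In mouse liver Arntl RNA is known to be high around the end of the night and low around the end of the light phase.

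All 3 genes had a promoter window in RefSeq (build GRCm38.p6, the same assembly as mm10), from 250 bases before to 50 after an annotated start. They are shown because the transcripts of the 3 genes moved together over the day. Capitals mark the ROR element letters AGTAGGTNA, searched on both strands. The letters were taken from the known pair of elements in Arntl, so their presence there is a description and not a finding. The Arntl window lies on the plus strand at chr7:113207261-113207560, the Clock window on the minus strand at chr5:76304743-76305042 and the Npas2 window on the plus strand at chr1:39194022-39194321.
Arntl: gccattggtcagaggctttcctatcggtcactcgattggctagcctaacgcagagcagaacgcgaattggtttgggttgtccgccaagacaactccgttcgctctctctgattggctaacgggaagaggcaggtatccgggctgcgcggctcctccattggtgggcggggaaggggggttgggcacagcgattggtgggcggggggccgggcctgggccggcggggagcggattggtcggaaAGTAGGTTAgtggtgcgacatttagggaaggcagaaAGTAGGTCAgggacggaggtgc
Clock: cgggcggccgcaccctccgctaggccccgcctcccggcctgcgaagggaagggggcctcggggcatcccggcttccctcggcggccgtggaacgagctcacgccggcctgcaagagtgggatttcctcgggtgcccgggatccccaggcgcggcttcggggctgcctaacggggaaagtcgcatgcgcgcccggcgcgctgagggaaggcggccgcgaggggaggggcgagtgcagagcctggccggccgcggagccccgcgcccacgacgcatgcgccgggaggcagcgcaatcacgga
Npas2: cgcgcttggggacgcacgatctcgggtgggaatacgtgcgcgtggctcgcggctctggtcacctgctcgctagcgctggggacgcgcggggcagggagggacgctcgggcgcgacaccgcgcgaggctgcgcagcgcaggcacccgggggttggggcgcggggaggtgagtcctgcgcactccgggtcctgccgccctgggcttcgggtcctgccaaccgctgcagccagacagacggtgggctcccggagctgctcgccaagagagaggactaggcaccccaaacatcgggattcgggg
The Arntl window held AGTAGGTTA from position -8 and AGTAGGTCA from position 29, counted from the annotated start as 1. Of 32851 windows of the same length, 194 (0.591%) held the ROR element letters, and 3 held them 2 times. The second Arntl match contains the half-site AGGTCA, which 16.3% of windows held. Neither the E-box letters CACGTG (in 7.15% of windows) nor the D-box letters TTANGTAA (2.32%) were in the 3 windows shown. The Clock and Npas2 windows shown held none of these letters. RefSeq also gave a further window for Arntl and 2 further windows for Clock, which are not shown. The Clock window shown is at the start of the transcript whose values are used. The Arntl window shown is at the start of the transcript used in the Errg-Cre and Esrrg LKO tables, and was printed because it holds both matches. The window of the Arntl transcript used in the wild-type table, chr7:113207215-113207514, overlaps it and holds only AGTAGGTTA, from position 39. A Clock window not shown, chr5:76303453-76303752, held the half-site as TGACCT from position -119. They are rich in G and C, with 76.3% in Clock and 72.7% in Npas2, against 61.7% in Arntl and a median of 52.7% over all windows.

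In mm10 the Arntl gene spans positions 113207465 to 113314126 of chromosome 7 on the plus strand, with 4 transcripts in the tables. Clock spans 76209868 to 76304792 of chromosome 5 on the minus strand with 3 transcripts, and Npas2 spans 39194272 to 39363240 of chromosome 1 on the plus strand with 1. Levels are read numbers of a whole transcript after quantile normalisation. Transcripts of a gene share reads, so levels of single isoforms are uncertain. Quantile normalisation hides the depth of a library, and no counting error can be given.

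Several libraries stood apart from others of their time. In Errg-Cre ZT6 replicate 3 and ZT10 replicate 3, Dbp was 28.2 and 39.3, against 407 and 531 in the other ZT6 livers and 395 and 475 in the other ZT10 livers. In B6 HFD ZT22 replicate 3 the summed neutrophil markers were 14939, against 11.9 and 13.2 in the other livers of that time, and Saa1, an acute phase gene, was 110328, against 321 and 9658. In 3 wild-type libraries many tested genes had a value under 1: 3.25% in B6 HFD ZT6 replicate 1, 6.95% in 129 chow ZT22 replicate 3 and 14.8% in B6 chow ZT14 replicate 3, where the median library had 0.257%. Results that rest on these libraries are given with and without them where a call changed. In Esrrg LKO ZT14 replicate 1 the summed neutrophil markers were 793, against 65.3 and 59.6 in the other livers of that time. In Errg-Cre ZT14 replicate 2 Saa1 was 51281, against 360 and 418. Neither of these livers is among those said below to stand apart. All 7 hepatocyte markers were listed in every set. Esrrg, the targeted gene, was not at 0 in the libraries labelled Errg-Cre (8.23 to 62.0, median 25.9) or Esrrg LKO (7.64 to 39.4, median 16.4), against 14.003 to 59.4 (median 26.04) in 129 HFD and 4.85 to 54.4 (median 29.4) in B6 HFD. These come from tables normalised separately, and reads outside the deleted exons would remain, so this value does not check the labels.

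Arntl, the partner common to both activator pairs, was high at ZT22 and ZT2, around the end of the night, and nearly silent at ZT10. In 129 HFD it ranged from 5.85 to 279.6 (median 155.0), in 129 chow from 6.31 to 259.9 (median 133), in B6 HFD from 3.96 to 257.9 (median 86.1) and in B6 chow from 9.23 to 226.9 (median 110.5). At ZT22 the 129 HFD livers held 278.7, 279.6 and 261.7, against 245.7, 219.3 and 176.8 in 129 chow. At ZT10 they held 5.85, 14.6 and 13.3, against 12.005, 14.4 and 6.31 in 129 chow. The ZT22 values of the diets did not overlap in 129, and the ZT10 values did. In B6 HFD the ZT22 values were 229, 180.0 and 36.7, against 222, 205.7 and 226.9 in B6 chow, and the low value came from the liver with high neutrophil markers. The highest mean fell at ZT22 in 129 HFD and at ZT2 in 129 chow, B6 HFD and B6 chow. It was 24.3 times that at ZT10 in 129 HFD, 22.8 times in 129 chow, 20.1 times in B6 HFD and 15.8 times in B6 chow.

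Clock, whose protein is a partner of BMAL1 with acetyltransferase activity, had the highest level per kilobase of the 3 and the smallest amplitude. Its values ran from 337 to 1056 (median 826) in 129 HFD, from 389 to 1517 (median 933) in 129 chow, from 383 to 1042 (median 737) in B6 HFD and from 518 to 1573 (median 1165) in B6 chow. In each wild-type set the highest mean fell at ZT2 and the lowest at ZT10. In B6 HFD the ZT2 mean was 871 ± 88.0 and the ZT10 mean 461 ± 78.9, and in B6 chow they were 1398 ± 211 and 619 ± 120.2 (SD, n = 3 each). The highest time was 2.50 times the lowest in 129 HFD, 3.28 times in 129 chow, 1.89 times in B6 HFD and 2.26 times in B6 chow.

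Npas2, the relative that can stand in for CLOCK, had the lowest level per kilobase and was often listed at 0. It was at 0 in 20 libraries, of which 5 were at ZT6, 7 at ZT10, 5 at ZT14 and 3 at ZT18, and it was above 0 in all 18 livers of ZT2 and all 18 of ZT22. In 129 HFD the ZT22 livers held 105.3, 38.0 and 48.7, against 35.6, 36.9 and 70.4 in 129 chow. In B6 HFD they held 16.1, 9.43 and 0.562, against 22.6, 15.5 and 13.2 in B6 chow. All 3 livers of 129 HFD were above all 3 of B6 HFD at ZT22, and all 3 of 129 chow were above all 3 of B6 chow. Over the 6 times the strains overlapped at 5 on chow and at 4 on HFD. The share of all genes whose livers did not overlap was not counted, for this or any other comparison. Statements on overlap are therefore descriptions of single livers, and no result is drawn from their number. At ZT10 the highest liver of any wild-type set held 1.56. No fold change over the day is given for Npas2 because its lowest groups are at or near 0.

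**Figure D1:**
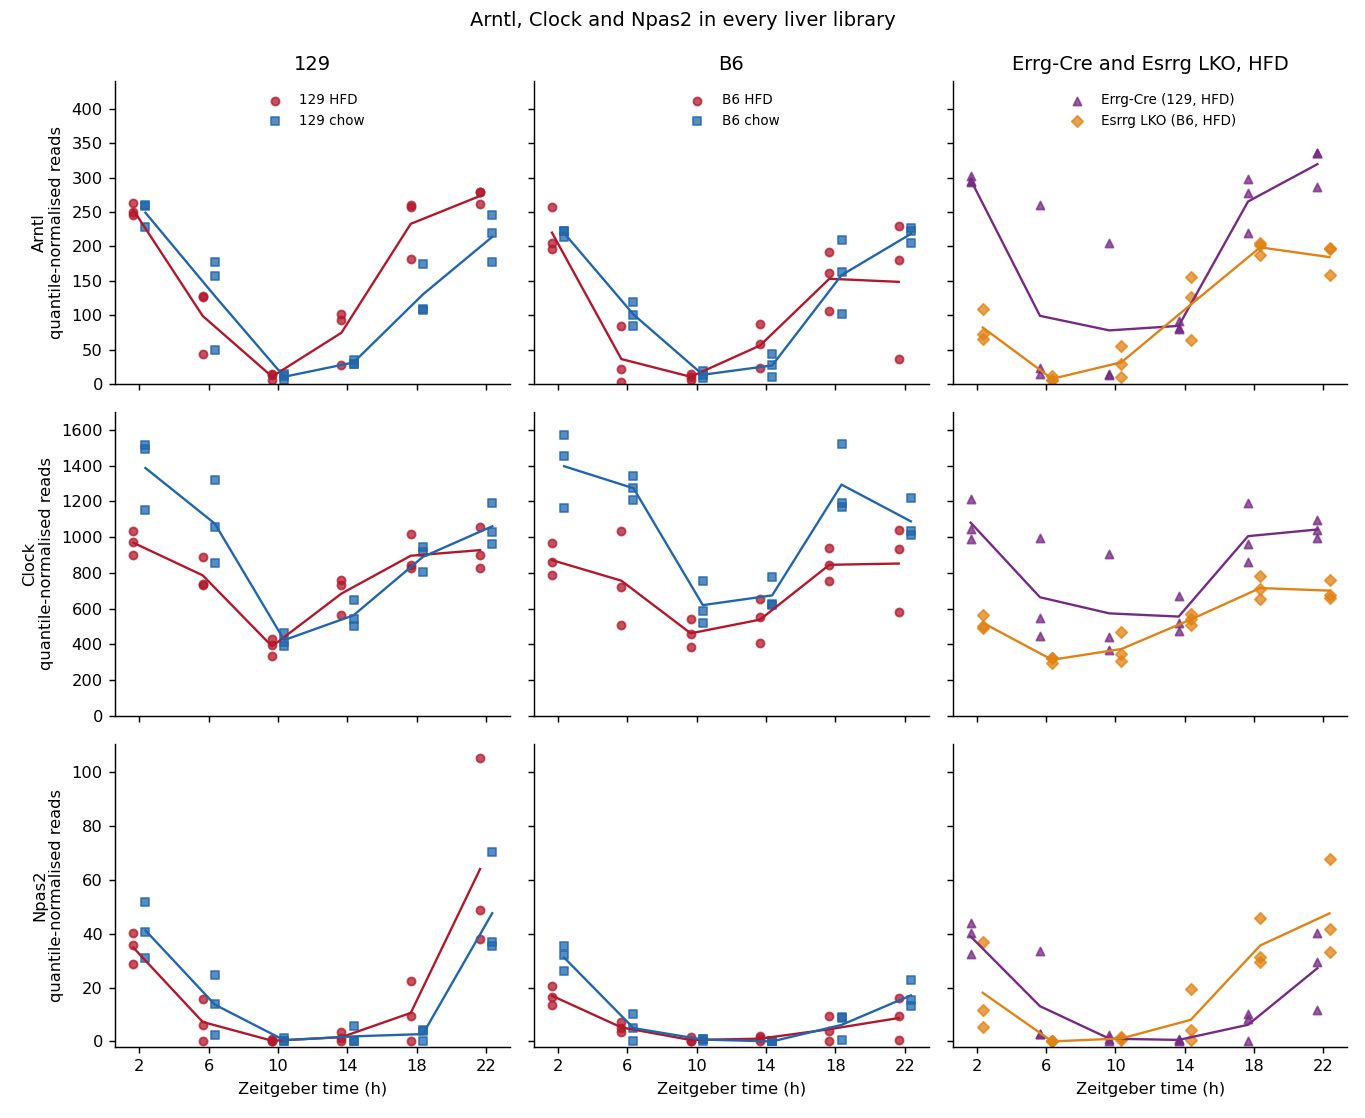
Quantile-normalised read number (linear axis) of Arntl, Clock and Npas2 against zeitgeber time in hours, for every library (points) with the mean of 3 replicates (lines), in 129 and B6 livers on HFD and chow and in Errg-Cre and Esrrg LKO livers on HFD. Arntl and Npas2 come close to 0 at ZT10 in wild-type livers, Clock does not fall below 337 there, and the 2 Errg-Cre livers with Arntl at 260 (ZT6) and 206 (ZT10) stand apart.

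A cosine with a period of 24 h was fitted to log2(value + 1) in each set. Its amplitude is the distance from the mean level to the peak. The 3 genes passed the moderated F test, with Benjamini-Hochberg adjustment over all genes, in all 6 sets (18 of 18 tests). Among all genes tested, 17.8% passed in Errg-Cre, 6.09% in Esrrg LKO, 7.05% in 129 HFD, 47.8% in 129 chow, 4.08% in B6 HFD and 6.15% in B6 chow, and 99 of 10952 genes measured in all tables (0.904%) passed in every set. The largest adjusted p of the 18 was 0.0125, for Clock in B6 HFD. With B6 HFD fitted on its own, Clock there had an adjusted p of 0.0663. In 129 chow the slope of log2 values on GC content, per 10 percentage points, averaged -0.53 at ZT2 and 0.61 at ZT18. The transcript Mir6236 there was 27.7 to 166.5 at ZT2 and 39055 to 61431 at ZT18. With the GC and length trend removed 35.7% of genes passed in 129 chow, and with Mir6236 as a covariate 14.8%. Time of day moved with these library properties in that set, and their part in its rhythms was not tested.

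The Arntl amplitude was 1.77 ± 0.34 in Errg-Cre, 2.15 ± 0.24 in Esrrg LKO, 2.08 ± 0.30 in 129 HFD, 2.09 ± 0.30 in 129 chow, 1.96 ± 0.30 in B6 HFD and 2.07 ± 0.30 in B6 chow (log2 ± SE, 18 libraries each). Without the 2 Errg-Cre livers that stood apart, its amplitude there was 2.35 ± 0.22, and without the 2 B6 HFD livers it was 2.44 ± 0.29. Clock amplitudes lay between 0.46 ± 0.11 in B6 HFD and 0.76 ± 0.11 in 129 chow, the set in which the slope on GC content moved with time. Npas2 had the largest amplitude of all genes tested in 129 HFD, at 2.82 ± 0.38, and in Esrrg LKO, at 2.81 ± 0.32. Its smallest was 1.64 ± 0.38 in B6 HFD, against 2.44 ± 0.38 in B6 chow. With many values at or near 0, the amplitude of Npas2 depends on the added 1: with 5 added it was 1.81 in 129 HFD and 0.88 in B6 HFD. Its mean log2 level lay at percentile 0.168 of the genes tested in wild-type livers.

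The fitted peak of Arntl was the earliest of the 3 genes in each set. It was at ZT 21.6 ± 0.74 in Errg-Cre, 19.2 ± 0.42 in Esrrg LKO, 22.31 ± 0.55 in 129 HFD, 23.5 ± 0.55 in 129 chow, 21.6 ± 0.58 in B6 HFD and 23.4 ± 0.55 in B6 chow (h ± SE). Clock peaked at ZT 22.5 ± 0.73 in Errg-Cre, 19.6 ± 0.34 in Esrrg LKO, 22.7 ± 0.75 in 129 HFD, 0.408 ± 0.53 in 129 chow, 23.2 ± 0.88 in B6 HFD and 0.230 ± 0.75 in B6 chow. Npas2 peaked at ZT 0.615 ± 0.52 in Errg-Cre, 20.5 ± 0.43 in Esrrg LKO, 23.5 ± 0.51 in 129 HFD, 0.711 ± 0.51 in 129 chow, 0.927 ± 0.88 in B6 HFD and 0.170 ± 0.59 in B6 chow. The lead of Arntl over Clock was small against its error, between 0.351 ± 0.93 h in 129 HFD and 1.60 ± 1.05 h in B6 HFD. Npas2 trailed Arntl by 3.06 ± 0.91 h in Errg-Cre, 1.295 ± 0.60 h in Esrrg LKO, 1.18 ± 0.75 h in 129 HFD, 1.22 ± 0.75 h in 129 chow, 3.31 ± 1.05 h in B6 HFD and 0.780 ± 0.81 h in B6 chow. After the trend with GC content and length was removed from each library, the Clock peak was at ZT 22.98 in 129 chow and 23.29 in B6 chow, and that of Arntl at ZT 23.2 and 23.31, so Arntl no longer came first on chow. The errors of the gaps take the genes' fits as independent, although the genes were measured in the same libraries, and no test was made of the order.

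**Figure D2:**
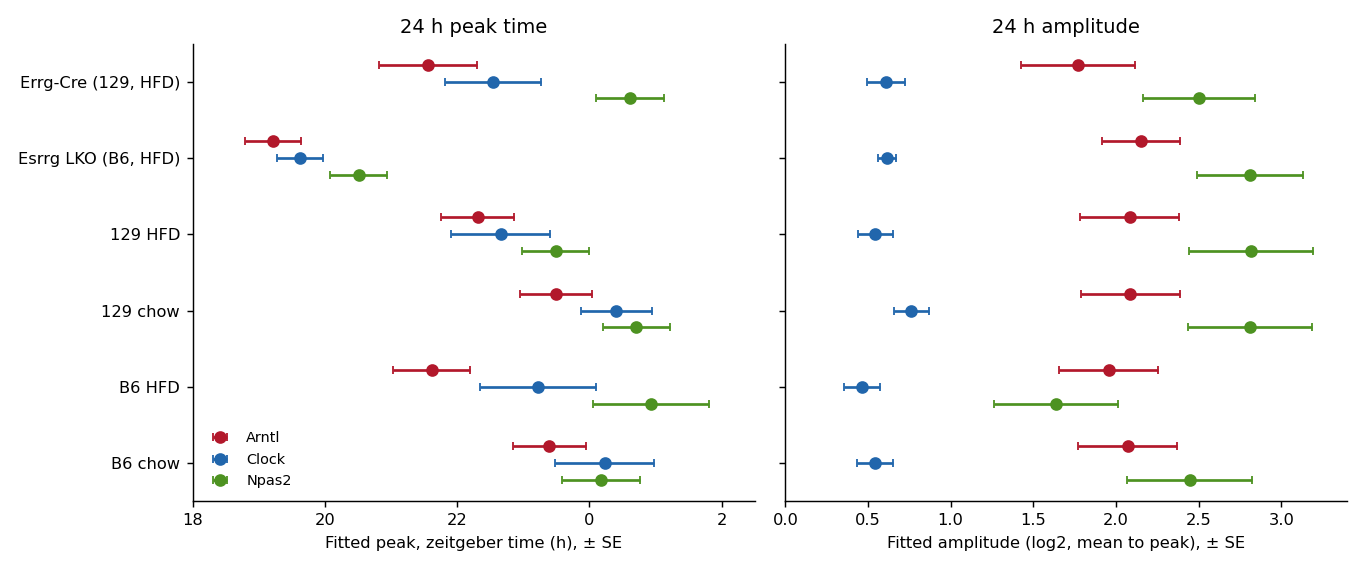
Fitted 24 h peak in zeitgeber hours (left) and amplitude on the log2(value + 1) scale (right) of Arntl, Clock and Npas2 in the 6 sets; points are estimates and bars are SE. The Esrrg LKO peaks lie between ZT 19.2 and 20.5, before those of every other set, and Clock has the smallest amplitude throughout.

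In the libraries labelled Esrrg LKO the daily course ran early relative to B6 HFD. Arntl held 108.7, 72.9 and 65.6 at ZT2, 5.86, 6.51 and 11.4 at ZT6, and 65.0, 126 and 155.8 at ZT14. The Esrrg LKO liver at 65.0 was the one of that set with high neutrophil markers. The B6 HFD livers held 197, 205.5 and 257.9 at ZT2, 84.1, 3.96 and 21.9 at ZT6, and 23.0, 88.2 and 57.8 at ZT14. The fitted peak in Esrrg LKO minus that in B6 HFD was -2.40 h for Arntl, -3.597 h for Clock and -4.42 h for Npas2, all earlier in Esrrg LKO. Of the 96 other genes with a 24 h rhythm in all 6 sets, 95 also had an earlier fitted peak in Esrrg LKO, with a median difference of -3.39 h (quartiles -3.96 and -2.71). The values of the 3 activators lay within the range of these genes. The 2 sets come from tables normalised separately, with no control libraries for the knockout used here, so the knockout and any difference in how or when the sets were made cannot be told apart, and no test was made.

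Between Errg-Cre and 129 HFD the fitted peaks of Arntl and Clock differed by -0.752 h and -0.116 h, and that of Npas2 by 1.13 h. The median over the 96 other genes was -0.600 h. Without the 2 Errg-Cre livers that stood apart, the Errg-Cre peaks were ZT 21.2 for Arntl, 22.01 for Clock and 0.0585 for Npas2. At ZT6, Arntl was 23.7, 14.5 and 259.8 in the 3 Errg-Cre livers, and at ZT10 it was 13.6, 15.4 and 205.7, so the last liver of each time was far above the other 2. Clock was likewise 546, 445 and 997 at ZT6 and 442, 369 and 907 at ZT10. Npas2 was 2.62, 2.89 and 33.7 at ZT6 but 0.712, 0 and 2.34 at ZT10.

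To ask whether diet or strain moved the rhythm, the fitted daily curves were compared between wild-type sets on 2 degrees of freedom. None of the 3 genes passed in any of the 5 comparisons by limma's moderated F test. The share of all genes that passed was 0.0532% for HFD against chow in B6, 1.26% for HFD against chow in 129, 13.1% for 129 against B6 on chow, 0.0443% for 129 against B6 on HFD and 0% for the interaction. Of 15 tests, that of Npas2 in 129 against B6 on HFD was the 1 with an unadjusted p under 0.05, and its adjusted p by limma was 0.961. Its amplitude difference there was 1.18 ± 0.53. The Arntl peak differed by -1.77 h (95% interval -3.38 to -0.168) with HFD in B6 and by -1.19 h (-2.73 to 0.364) in 129. For Clock the differences were -1.01 h (-3.31 to 1.295) in B6 and -1.75 h (-3.58 to 0.0898) in 129, and for Npas2 0.757 h (-1.35 to 2.86) and -1.22 h (-2.66 to 0.216). The other rhythmic genes had medians of -1.03 h in B6 and -1.01 h in 129. With the GC and length trend removed from each library, the Clock peak was at ZT 22.98 in 129 chow and 23.29 in B6 chow. Over the settings other than leaving out 1 library, it lay between ZT 22.66 and 22.68 in 129 HFD. In B6 HFD it lay between ZT 22.44 and 23.57. The Clock difference in 129 was therefore smaller with that trend removed. The interval of Arntl in B6 did not include 0, although its test on both terms of the curve did not pass (unadjusted p = 0.0959, adjusted p by limma 0.602). The other 5 intervals included 0, and they are several hours wide. Between 129 and B6 on chow the peaks of Arntl, Clock and Npas2 differed by 0.105, 0.178 and 0.541 h.

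**Figure D3:**
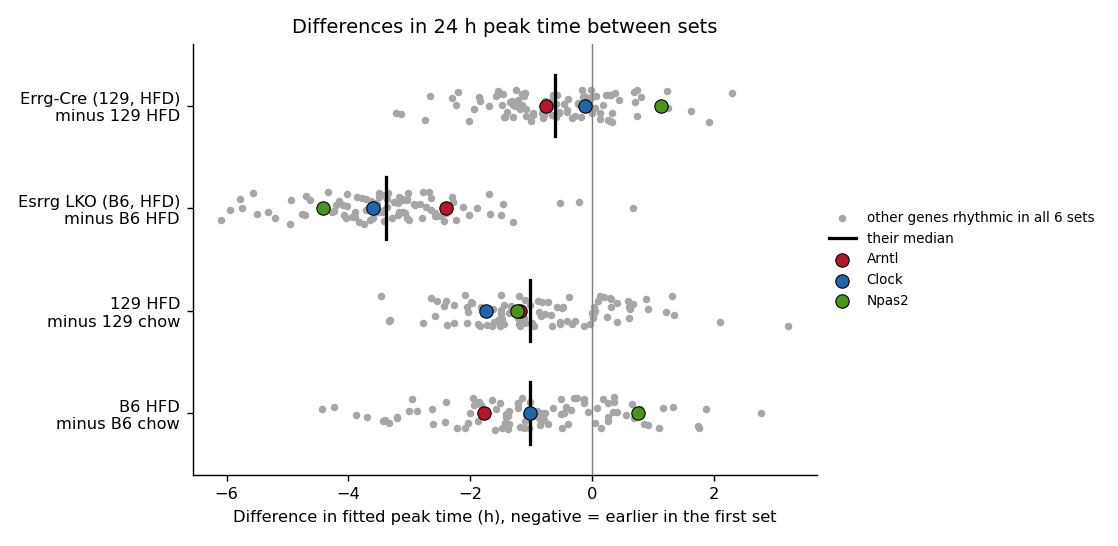
Difference in fitted 24 h peak time in hours between pairs of sets, for Arntl, Clock and Npas2 (coloured) and the 96 other genes with a 24 h rhythm in all 6 sets (grey, with their median as a bar). Most grey points lie left of 0 for HFD minus chow in both strains, and the Esrrg LKO points centre on -3.39 h; the Errg-Cre and Esrrg LKO comparisons set side by side tables that were normalised separately.

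The level of each gene over the day was compared as the mean of the 6 time-specific differences. Clock fell with HFD in B6: its mean was 721 ± 218 in B6 HFD and 1058 ± 337 in B6 chow (SD over 18 libraries across the day), with a difference of -0.54 ± 0.08 (log2 ± SE, adjusted p = 7.06e-08), lower at 6 of 6 times. It was the 1 of 3 genes that passed in this comparison, in which 60.2% of all genes passed, 32.7% of them lower and 27.5% higher as shares of all genes. At ZT2 the B6 HFD livers held 858, 790.6 and 965, against 1163, 1457 and 1573 in B6 chow, and at ZT6 they held 1036, 510.4 and 722, against 1274, 1206 and 1343. The diets did not overlap at either time. Differences of -0.67 ± 0.19 at ZT2, -0.81 ± 0.19 at ZT6 and -0.61 ± 0.19 at ZT18 passed (adjusted p 0.0132, 0.000873 and 0.0180). The call was lost at ZT2 without B6 chow replicate 2 or 3 or B6 HFD replicate 2, and at ZT18 without B6 chow replicate 2 or B6 HFD replicate 1. In the same livers 5 of 8 Kupffer cell markers and 5 of 6 tested stellate cell markers were higher with HFD, with summed Kupffer levels of 1146 to 5346 in B6 HFD and 794 to 2008 in B6 chow, and summed stellate levels of 2518 to 4442 in B6 HFD and 1806 to 2470.4 in B6 chow. Of other lists, 4 of 6 sinusoidal endothelium markers and 2 of 4 erythroid markers were higher, with summed endothelium levels of 1594 to 2464 in B6 HFD and 1144 to 2067 in B6 chow and summed erythroid levels of 224 to 1296 in B6 HFD and 456 to 992 in B6 chow. The 1 tested adipocyte marker was higher by 4.66 on the log2 scale, with summed levels of 0.106 to 259.99 in B6 HFD and 0 to 8.2 in B6 chow. Of 7 hepatocyte markers 2 were higher and 3 lower, and of 4 tested monocyte and recruited macrophage markers 1 was higher and 1 lower. Summed hepatocyte levels were 258542 to 1469496 (median 381943) in B6 HFD and 1028956 to 1406318 (median 1342055) in B6 chow. The part of these cells in the result was not tested.

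Of 72 tests of a member at a single time, 7 passed: Arntl at ZT6 and Clock at ZT2, ZT6 and ZT18 with HFD in B6, Clock at ZT18 between strains on chow, and Arntl at ZT6 and Npas2 at ZT22 between strains on HFD. The share of all genes that passed at ZT2, ZT6, ZT10, ZT14, ZT18 and ZT22 was 14.7%, 35.1%, 4.53%, 30.2%, 23.1% and 4.77% for HFD against chow in B6. It was 4.17%, 1.26%, 0.23%, 0.372%, 5.49% and 6.6% for HFD against chow in 129. It was 3.32%, 5.51%, 4.86%, 23%, 47.9% and 22.7% for 129 against B6 on chow, and 4.72%, 9.34%, 5.4%, 7.02%, 5.04% and 6.79% for 129 against B6 on HFD.

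The size of the Clock difference with HFD in B6 depended on the treatment of the data. The selected Clock transcript is 9719 bases long with 40.9% G and C, longer than 97.6% and richer in G and C than 7.82% of tested genes. The slope of a library's log2 values on GC content, per 10 percentage points, averaged 0.188 ± 0.124 in B6 HFD and -0.423 ± 0.459 in B6 chow (SD, n = 18 each). After the trend with GC content and length was removed from each library, the Clock difference was -0.12 ± 0.07 (adjusted p = 0.183). With the level of Mir6236, a transcript that ranged from 915 to 91012 in B6 HFD and from 32.8 to 1171 in B6 chow, as a covariate, it was -0.29 ± 0.13 (adjusted p = 0.225). The slope and Mir6236 differed between the same sets as the diet. Their part and that of diet cannot be told apart, and neither was tested.

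In 129, Clock did not pass with diet: its mean was 775 ± 217 in 129 HFD and 899.7 ± 356 in 129 chow, a difference of -0.16 ± 0.08 (adjusted p = 0.147, where 10.9% of genes were higher and 7.45% lower). The diet difference in 129 minus that in B6 was 0.38 ± 0.11 (adjusted p = 0.00745, where 34.4% of genes passed), and 0.023 after the GC and length trend was removed (adjusted p = 0.903). On chow, Clock was lower in 129 than in B6, with a difference of -0.27 ± 0.08 (adjusted p = 0.00306, where 53% of genes passed, 25.4% higher and 27.5% lower). At ZT18 the 129 chow livers held 803, 946.6 and 919, against 1192, 1523 and 1167 in B6 chow, with no overlap (-0.53 ± 0.19, adjusted p = 0.0194, lost without 129 chow replicate 1 or B6 chow replicate 2). The mean difference turned to 0.033 without the GC and length trend. On HFD the strains differed by 0.10 ± 0.08 (adjusted p = 0.329).

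Arntl was higher in 129 than in B6 on HFD. It averaged 157 ± 106 in 129 HFD and 104 ± 88.0 in B6 HFD (SD over 18 libraries across the day), a difference of 0.76 ± 0.24 (log2 ± SE, adjusted p = 0.00929), higher in 129 at 6 of 6 times. It was the 1 of 3 genes called, where 32.3% of all genes passed, 19% higher and 13.3% lower. The contrast was widest at ZT6, where 129 HFD livers held 43.5, 127.7 and 126.4, against 84.1, 3.96 and 21.9 in B6 HFD, with overlapping ranges (2.08 ± 0.58, adjusted p = 0.0138, where 9.34% of genes passed; 1.03 without the B6 liver at 3.96, adjusted p = 0.293, and also lost without 129 HFD replicate 2 or 3). Without the 2 B6 HFD livers that stood apart, the mean difference was 0.79 ± 0.20, and with GC and length trend removed it was 0.69 ± 0.24 (adjusted p = 0.0183). With Mir6236 as a covariate it was 0.66 ± 0.30 (adjusted p = 0.0848). Fewer cells of a type and less RNA per cell cannot be told apart in whole liver. Markers of other cells differed between the same sets: 7 of 8 tested Kupffer cell markers and 4 of 6 tested stellate cell markers were lower in 129 HFD, with summed Kupffer levels of 873 to 2048 in 129 HFD and 1146 to 5346 in B6 HFD, and summed stellate levels of 1933 to 3121 in 129 HFD and 2518 to 4442 in B6 HFD. In addition, 4 of 7 hepatocyte markers were higher in 129 HFD, 2 of 6 endothelium markers were lower, 1 of 4 erythroid markers was higher, the 1 tested adipocyte marker was lower (-5.83 on the log2 scale) and the 1 tested lymphocyte marker was lower. Of 4 tested monocyte and recruited macrophage markers 1 was higher and 1 lower. Summed hepatocyte levels were 636738 to 1420232 (median 1351231) in 129 HFD and 258542 to 1469496 (median 381943) in B6 HFD. The part of these cells in the result was not tested.

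With diet, Arntl did not pass in either strain. The difference was -0.42 ± 0.24 in B6 (adjusted p = 0.118) and 0.32 ± 0.24 in 129 (adjusted p = 0.381), and these 2 differed by 0.75 ± 0.33 (adjusted p = 0.0745). Without the 2 B6 HFD livers that stood apart, the B6 difference was -0.45 (adjusted p = 0.0451) and the difference between strains 0.78 (adjusted p = 0.0238). At ZT6 in B6, HFD livers held 84.1, 3.96 and 21.9, against 119, 84.2 and 100.5 in chow livers, so the highest HFD liver lay just under the lowest chow liver. That difference of -2.25 ± 0.58 passed (adjusted p = 0.00201) and was -1.20 (adjusted p = 0.107) without the liver at 3.96. On chow the strains differed by 0.016 ± 0.237, with an interval from -0.46 to 0.49.

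Npas2 passed in no comparison of means. Its mean was 19.7 in 129 HFD and 17.9 in 129 chow, but 6.15 in B6 HFD and 9.99 in B6 chow. It therefore passed the filter, a mean of at least 10 over the wild-type libraries, only through the 129 sets. Its mean difference for 129 against B6 was 0.77 ± 0.38 on HFD (adjusted p = 0.121) and 0.50 ± 0.38 on chow (adjusted p = 0.274), and for HFD against chow it was -0.26 ± 0.38 in B6 and 0.014 ± 0.384 in 129. With 5 added before the log in place of 1, the strain difference on HFD was 0.65 (adjusted p = 0.00705). At ZT2 the 129 HFD livers held 40.1, 35.7 and 28.7, against 20.7, 16.7 and 13.5 in B6 HFD, with no overlap. At ZT22 the same contrast was 3.18 ± 0.94 (adjusted p = 0.0266, where 6.79% of genes passed), and 2.15 (adjusted p = 0.372) without the B6 HFD liver at 0.562; it was also lost without 129 HFD replicate 1 or 3.

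**Figure D4:**
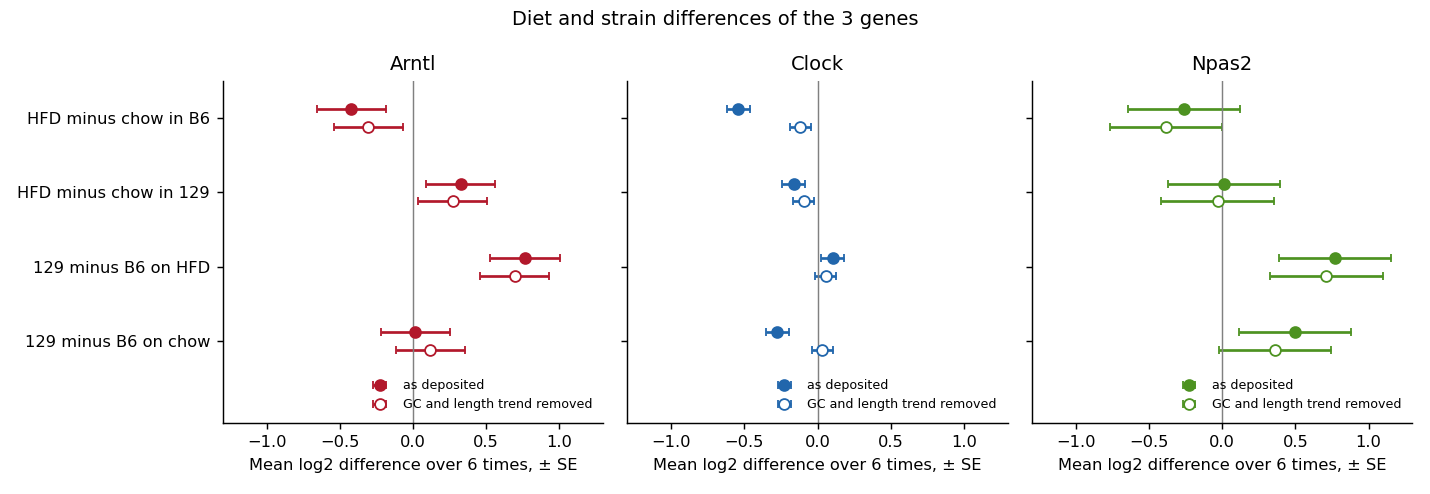
Mean log2 difference over the 6 times for Arntl, Clock and Npas2 in 4 diet and strain comparisons, as deposited (filled) and after the trend with GC content and length was removed from each library (open); bars are SE. The Clock points for HFD minus chow in B6 (-0.54 and -0.12) and for 129 minus B6 on chow (-0.27 and 0.033) differ between the treatments of the data, and the Arntl points differ little.

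Per kilobase of transcript, Clock stood highest in each set, then Arntl, then Npas2. In 129 HFD the level per kilobase averaged 79.7 ± 22.4 for Clock, 54.6 ± 36.8 for Arntl and 4.75 ± 6.52 for Npas2 (SD over 18 libraries across the day), and in B6 chow 108.8 ± 34.6, 42.7 ± 30.4 and 2.40 ± 2.83. Arntl and Clock overlapped widely in each set. Since NPAS2 and CLOCK compete for the same partner, the share of Npas2 in Npas2 plus Clock was taken per kilobase. At ZT22 it was 13.98% ± 7.95 in 129 HFD, 9.52% ± 3.81 in 129 chow, 2.05% ± 1.81 in B6 HFD and 3.601% ± 1.26 in B6 chow (SD, n = 3 each). The livers of the 2 strains did not overlap at ZT22 on either diet, from 7.75% to 22.9% in 129 HFD against 0.227% to 3.86% in B6 HFD, and from 6.51% to 13.8% in 129 chow against 2.46% to 4.96% in B6 chow. The liver at 0.227% was the one with high neutrophil markers. At ZT2 the strains overlapped on chow (4.63% to 7.64% in 129, 3.74% to 6.62% in B6) but not on HFD (6.47% to 8.47% and 3.18% to 5.33%). At ZT18 on chow the mean was 0.722% in 129 and 1.06% in B6. At ZT10 the share was under 1% in every wild-type liver, at most 0.942%. In Esrrg LKO it reached 13.4% ± 3.46 at ZT22 and 0% at ZT6, and in Errg-Cre its highest mean was 7.86% ± 1.71 at ZT2. Over the day it averaged 4.47% ± 5.88 in 129 HFD and 1.67% ± 1.66 in B6 HFD (SD, n = 18 each). These are shares of RNA on a quantile-normalised scale, and no test was fitted to them. The GC and length trend was not removed from them, and the transcripts differ in GC content (52.3% in Npas2, 40.9% in Clock). The slope on GC content at ZT22 averaged 0.54 in 129 chow and 0.052 in B6 chow, and 0.31 in 129 HFD and 0.20 in B6 HFD. Its part in the shares was not tested.

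**Figure D5:**
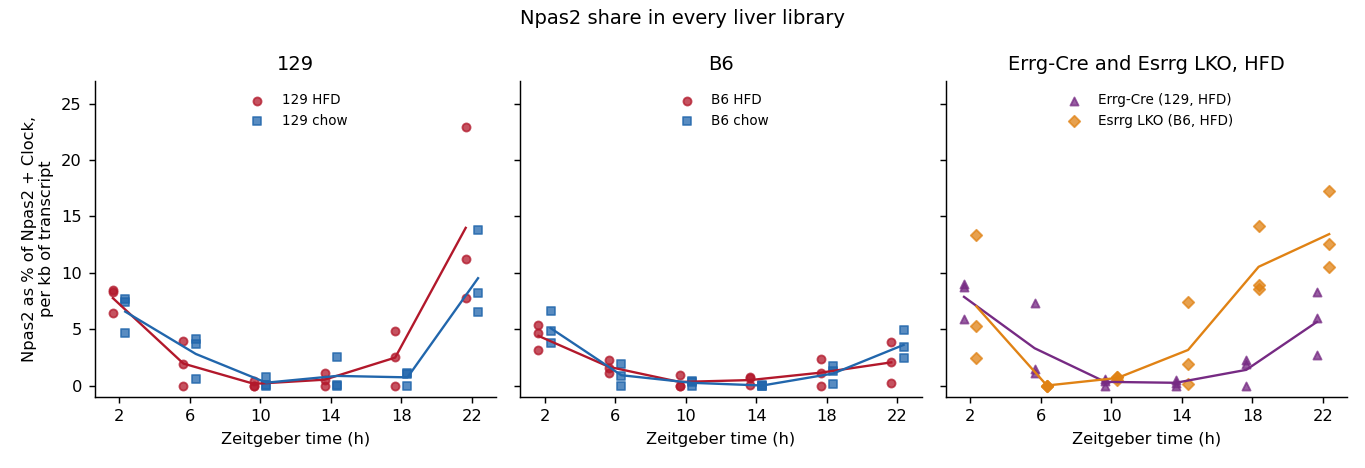
Npas2 as a percentage of Npas2 plus Clock per kilobase of transcript against zeitgeber time in hours, for every library (points) with the mean of 3 replicates (lines). At ZT22 the wild-type 129 livers lie between 6.51% and 22.9% and the wild-type B6 livers at or below 4.96%, while Errg-Cre livers lie between 2.70% and 8.27% and Esrrg LKO livers between 10.47% and 17.2%; the share is near 0 at ZT10 in wild-type livers.

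Genes that the activators drive or that repress them, a list of 13, were mostly rhythmic. The 24 h test was passed by 12 of 13 in Errg-Cre (17.8% of all genes), 13 in Esrrg LKO (6.09%), 11 in 129 HFD (7.05%), 12 in 129 chow (47.8%), 8 in B6 HFD (4.08%) and 9 in B6 chow (6.15%). In B6 chow Dbp, a transcription factor gene driven through E-boxes, had an amplitude of 2.73 and a peak at ZT 11.3, and Nr1d1, the repressor that acts on Arntl, an amplitude of 2.61 and a peak at ZT 6.99. Ciart, a repressor of the activator pair, peaked at ZT 14.25 (amplitude 2.305), and Bhlhe41, a further repressor at E-boxes, at ZT 10.51 (amplitude 2.24). In mean level with HFD in B6, 4 of 13 rose and 2 fell, where 60.2% of all genes passed. Dbp rose by 0.999 ± 0.272 and Nr1d1 by 0.97 ± 0.30, but neither passed after the GC and length trend was removed (-0.0016, adjusted p = 0.996, and 0.47, adjusted p = 0.137, by limma). The 1 of these 6 genes that passed in the same direction after that step was Tef, named after its values were seen (0.46 as deposited and 0.27 after it). In 129 against B6 on HFD, 3 rose, among them Cry1 by 0.67 ± 0.15, and 1 fell, where 32.3% of all genes passed, and all 4 passed after that step. With HFD in 129, 1 of 13 rose, where 10.9% of all genes rose and 7.45% fell, and it did not pass after that step. On chow, 4 were higher and 2 lower in 129, where 53% of all genes passed, and 2 of the 6 passed after that step. As shares of the list, these counts of mean changes lie below the shares of all genes. With the GC and length trend removed, 46.5% of all genes passed with HFD in B6 and 21.2% with HFD in 129. Between strains 39.4% then passed on chow and 34.8% on HFD.

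Of 5 genes that carry ROR elements or encode ROR receptors, 4 were tested. Cry1, the repressor gene with both kinds of element, peaked at ZT 21.3 in B6 chow, and Nfil3, a repressor at D-boxes, at ZT 23.2. These peaks lay nearer to the Arntl peak at ZT 23.4 than those of the E-box genes named above. In 129 against B6 on HFD, Nfil3 rose by 0.66 ± 0.12, Cry1 by 0.67 ± 0.15 and Rora by 0.28 ± 0.05, where 32.3% of all genes passed. Of these 3, 2 passed after the GC and length trend was removed, where 34.8% of all genes passed. With HFD in B6, Rora, a ROR receptor gene, fell by 0.55 on the log2 scale and passed after that step. The share of all genes that passed was 60.2% as deposited and 46.5% after it. Of the 5 close paralogs of the activators only Arnt, the general partner of PAS proteins, passed the filter on low values. It was higher in 129 than in B6 on HFD by 0.44 ± 0.07, where 32.3% of all genes passed. With HFD in B6 it fell, with a difference of -0.23 ± 0.07, where 60.2% passed.

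Among 25 genes for enzymes and partners that modify the activator proteins, the 24 h test was passed by 4 in Errg-Cre (17.8% of all genes), 1 in Esrrg LKO (6.09%), 3 in 129 HFD (7.05%), 13 in 129 chow (47.8%), 1 in B6 HFD (4.08%) and 2 in B6 chow (6.15%), so most of these counts lie near the share of all genes. Nampt, the enzyme of NAD synthesis, was among them in each set and peaked at ZT 15.04 in B6 chow. In mean level, 5 rose and 9 fell with HFD in B6, where 60.2% of all genes passed, and 2 rose and 6 fell with HFD in 129, where 10.9% of all genes rose and 7.45% fell. In 129 against B6, 9 were higher and 7 lower on chow, where 53% of all genes passed, and 3 were higher and 2 lower on HFD, where 32.3% passed. After the GC and length trend was removed, 5 of 14, 7 of 8, 4 of 16 and 5 of 5 of these passed in the same direction. In the same order of comparisons, 46.5%, 21.2%, 39.4% and 34.8% of all genes passed after that step.

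Genes with courses most like each member were ranked by Pearson's r over the 24 wild-type group means, centred within each set, which all come from the same libraries. Arntl and Clock had r = 0.92, Arntl and Npas2 0.82, and Clock and Npas2 0.83. The courses nearest to Arntl were those of Chka, a choline kinase gene (0.98), Lgalsl (0.96), Leo1 (0.95), Caprin1 (0.94) and Net1 (0.93), and the most opposite were Dbp (-0.94), Slc5a6, a vitamin transporter gene (-0.94), and Hook2 (-0.91). For Clock they were Caprin1 (0.95), Chka (0.93), Pid1 (0.92), Asap2 (0.92) and Arntl (0.92), with Slc5a6 (-0.95), Pcsk4 (-0.92) and Hook2 (-0.91) at the other end. Npas2 had other neighbours, Btg1 (0.95), Tars (0.93), Dtx4 (0.92), Pnrc1 (0.91) and Clpx (0.90), and its opposites were Wee1, a cell cycle kinase gene (-0.93), Per3 (-0.93) and Tef (-0.89).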

How the data were processed

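The deposited values are signal: the authors aligned reads with STAR and quantified transcripts with HOMER on mm10, per the submitters' processing notes (no versions), and quantile-normalised each of 3 tables. Libraries were TruSeq from total RNA, per the labels' protocols. Each table lists 42361 transcripts. Left out were 91 rows naming no gene and 18 columns that match no sample label. Sorted values are identical across a table's libraries, so depth is unknown and global shifts are hidden.

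Tests used log2(value + 1). A transcript needed a mean of at least 10 over its table, and the highest per symbol was taken: 11286 genes (wild type), 11621 (Errg-Cre table) and 11945 (Esrrg LKO table). Fits used limma 3.58.1 (R 4.3.3, moderated variances with a mean trend), adjusting over all genes by Benjamini-Hochberg at 0.05. The 24 wild-type groups shared 1 model, from which diet, strain and interaction contrasts were averaged over 6 times. The 24 h cosine was tested on 2 degrees of freedom, and each knockout table was fitted alone. Nothing in the labels says that replicates were different animals, so p-values reflect the spread of the libraries only. Replicate numbers did not pair samples in general: 11 of 72 same-numbered pairs correlated over 0.1 (median -0.0091). In 1 of 24 comparisons of 2 groups, 129 against B6 on chow at ZT2, all 3 pairs did (0.219 to 0.673). The steps were tested on simulated data.

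The members, gene lists and marker lists were chosen with earlier results of these data known. Genes named are the members, the 5 most alike and 3 most opposite to each, and up to 4 per clock list by amplitude in B6 chow or past the threshold. The ratio of Npas2 to Clock is given as a share, since Npas2 is often at 0. Some results for single genes of the clock lists are not reported here. The closing section gives the alternatives tried. Leaving out the 2 Errg-Cre or the 2 B6 HFD libraries that stood apart, or 1 library at a single time, and the block at ZT2 on chow, were chosen after seeing the data.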

Additional observations from a re-analysis of the deposited data

Results flagged for a closer look

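The diet difference of Clock was larger in B6 than in 129: the difference in 129 minus that in B6 was 0.38, and it is named for this in the report, with its value after the GC and length trend was removed. Of the genes in the 4 clock lists, 16 also passed the test of this difference between strains, and 6 of them passed in the same direction after that trend was removed (Cry1, Nfil3, Rora, Arnt, Nono and Trap1). Among repressors and E-box targets the difference was -1.39 for Per1, 0.59 for Cry1, -1.19 for Nr1d1 and -1.04 for Dbp. It was 0.65 for Nfil3, 0.53 for Rora and 0.38 for Arnt. Among enzymes and partners it was -0.50 for Gsk3a, 0.40 for Gsk3b, -0.41 for Crebbp, 0.22 for Kdm5a, -0.21 for Nono, -0.33 for Trap1 and 0.42 for Med1. All are log2 differences averaged over 6 times. In this comparison 34.4% of all genes passed as deposited, and 17.7% after the GC and length trend was removed. The lists held 13, 4, 1 and 25 tested genes, with Cry1 shared, so both counts lie near the shares of all genes.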

How the results depend on the processing

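Of 525 checks of a result under another setting, 508 counted as the same. For mean differences this took the same direction and the same side of the threshold. Amplitudes and rhythm changes are always positive, so for them only the side of the threshold could change. For the ratio of Npas2 to Clock it took a change smaller than its SD over libraries. Fitting the replicate number as a block changed no call, with the Clock diet difference in B6 at -0.54 and an adjusted p of 1.19e-07. A replicate block among the chow libraries of ZT2 alone, where all 3 pairs correlated, changed no call either, with the Clock strain difference on chow at -0.27 and an adjusted p of 0.00262. The cause of the changes below was not tested. With the GC and length trend removed, Clock was -0.12 for HFD minus chow in B6, 0.033 for 129 minus B6 on chow and 0.023 for the interaction, none of them called, and Npas2 turned to -0.031 for HFD minus chow in 129. With Mir6236 as a covariate, Clock was -0.29 for HFD minus chow in B6, -0.21 for HFD minus chow in 129 (now called), -0.11 for 129 minus B6 on chow, -0.021 for 129 minus B6 on HFD and 0.085 for the interaction, and Arntl was 0.66 for 129 minus B6 on HFD and no longer called. A pseudocount of 5 brought Npas2 in 129 minus B6 on HFD past the threshold (0.65). Without the 3 libraries with the most genes under 1, Arntl was called for HFD minus chow in B6 (-0.57) and the interaction (0.88), as it was without B6 HFD ZT6 replicate 1 and ZT22 replicate 3 together (-0.45 and 0.78). Clock in B6 HFD fitted alone kept an amplitude of 0.46 but was not called. Summing transcripts moved the log2 ratio of Npas2 to Clock per length in B6 HFD to -7.66, against -6.09. Clock had 3 transcripts that share reads, with means of 855 to 863 in wild-type livers, and Npas2 had 1, so summing adds to Clock in every set. A set is named here if the change exceeded the SD of its ratio over libraries, 1.32 in B6 HFD and at least 1.69 in the other sets. At single times, Npas2 turned to -0.00596 at ZT14 for HFD minus chow in 129 and to 0.049 at ZT6 for 129 minus B6 on HFD with a pseudocount of 5, and Arntl turned to 0.090 at ZT22 for 129 minus B6 on chow without the 3 libraries.

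Leaving out 1 library at a time, Arntl ran from -0.59 to -0.25 for HFD minus chow in B6 (called without B6 HFD ZT6 replicate 1), from -0.069 to 0.11 for 129 minus B6 on chow and from 0.57 to 0.91 for the interaction (called in 5 of 72). Npas2 ran from -0.14 to 0.23 for HFD minus chow in 129 and from 0.60 to 0.99 for 129 minus B6 on HFD (called in 2 of 36). All 18 rhythm calls held. At single times Clock ran from -0.80 to -0.58 at ZT2 and from -0.69 to -0.49 at ZT18 for HFD minus chow in B6, and from -0.60 to -0.41 at ZT18 for 129 minus B6 on chow; Arntl at ZT6 ran from -3.25 to -1.20 for HFD minus chow in B6 and from 1.03 to 3.08 for 129 minus B6 on HFD, and Npas2 at ZT22 from 2.15 to 3.87 for 129 minus B6 on HFD.

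Counts of genes over the whole table that moved by more than 1.5 times are given as the count under the setting, against the count as reported. With Mir6236 as a covariate they were 565 against 6791 (mean, HFD minus chow in B6), 1446 against 5976 (mean, 129 minus B6 on chow), 14 against 3881 (interaction), 1665 against 5395 (rhythm in 129 chow), 908 against 2074 (rhythm in Errg-Cre), 11 against 142 (rhythm change with HFD in 129) and 77 against 1476 (rhythm change between strains on chow). With the GC and length trend removed they were 1984 against 3881 (interaction) and 633 against 1476 (rhythm change between strains on chow). With no filter they were 1200 against 2074 (rhythm in Errg-Cre), 839 against 1476 and 31 against 142 (those rhythm changes), and with a minimum mean of 1 the last was 74. Without the 3 libraries, and without the 2 B6 HFD libraries, rhythm changes were 14 and 11 against 6 (diet in B6), 281 and 261 against 142 (diet in 129) and 9 and 2 against 5 (strains on HFD).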
